A study of Mus musculus with 12 samples.

Results

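The interferon response genes are a set of 39 genes that cells switch on when interferon reaches them, listed by symbol. Each gene was read from 1 Affymetrix probe set that the platform annotation assigns to that symbol alone, the one with the highest mean log2 intensity over the 12 arrays. This gave values for 37 of the 39 genes among 18193 genes in all. Isg15 was on the array only in a probe set shared by several symbols and Ifi44 had no probe set of its own, so both were not analysed here.

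The RNA came from NIH3T3 cells, an established mouse fibroblast line whose division slows when the dish is full. All cells had been infected with virus, carrying either a control vector, Yap (a coactivator that binds Tead factors), Tead2-VP16 (the DNA-binding factor Tead2 joined to a viral activation domain) or Tead2-EnR (Tead2 joined to the Engrailed repression domain). There were 6 groups of 2 arrays: Tead2-EnR cells at low density, Yap cells and Tead2-VP16 cells proliferating at a density slightly above normal confluency (called high density here), Tead2-VP16 cells at complete confluency, control cells at complete confluency, and control cells at 30% confluency (low density). No control group was harvested at the high density of the Yap and Tead2-VP16 cells, so for these 2 groups vector and density cannot be told apart. Whether the 2 arrays of each group stand for independent cultures is not stated, and the p-values therefore cover only array-to-array spread, which may be technical. In RNA from a whole dish, fewer cells of a kind and less RNA per cell cannot be told apart.

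As background, interferons are secreted proteins released mainly by cells that have sensed viral nucleic acid. They bind receptors on the same and neighbouring cells, the receptor-bound kinases Jak1 and Tyk2 phosphorylate Stat factors, and a complex that holds Stat2 and Irf9 binds a DNA element in the promoters of the response genes. The products block viral replication (Ifit, Mx and Oas proteins), tag or modify proteins (Isg15, Trim and Parp proteins), attack the vacuoles of intracellular microbes (GTPases of the Gbp and Irg families) and bring peptides to class I molecules on the cell surface (Tap1, Tap2, Tapbp, B2m). Fibroblasts respond to interferon and also keep a low level of many of these transcripts without infection.

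Values are log2 intensities, and changes are log2 differences tested with limma over all 12 arrays, with p-values adjusted over the 18193 genes and a gene called at an adjusted p below 0.05. The median intensity of the arrays ran from 51.9 to 53.7, and the median gene of the table had a mean of 6.87. Of the 37 measured genes, 22 lay above that level and 15 below it, with Mx1 at percentile 8 of all genes and Oasl2 at percentile 10.2. Probe sets bind with different strength, so these positions describe signal and not transcript abundance. Of 8 fibroblast markers the median lay at percentile 99.6 of all genes. Of 8 immune cell markers the median lay at percentile 28.9, with Itgam (7.0) and Ptprc (7.1), which define myeloid cells and leukocytes, lowest and Lyz2 (72.1) and Csf1r (51.5) highest.

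The members' mean log2 level was 7.27 in Tead2-EnR cells, 7.31 in Yap cells, 7.36 in Tead2-VP16 cells at high density, 7.46 in confluent Tead2-VP16 cells, 7.47 in confluent control cells and 6.79 in low-density control cells. The low-density control group had the lowest mean of the 6 groups for 27 of the 37 members, whereas it was lowest for 28.8% of all genes. The highest mean lay in confluent control for 12 members and in confluent Tead2-VP16 cells for 12, against 18.1% and 15.6% of all genes. Of the 4 members that were highest in low-density control, Ifit2 had by far the largest difference from confluent control.

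**Figure D1:**
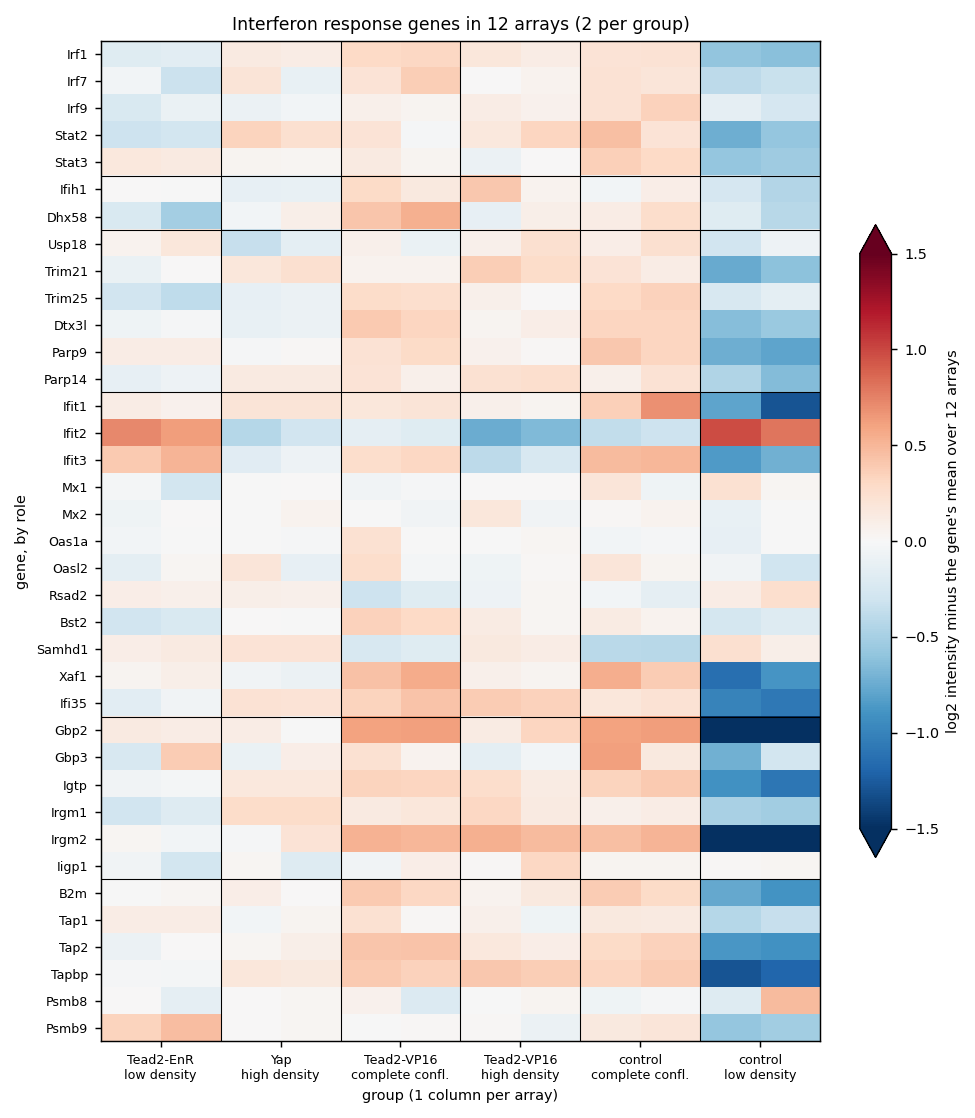
Log2 intensity of the 37 measured interferon response genes (rows, grouped by role) in each of the 12 arrays (columns, 2 per group), minus the gene's mean over the 12 arrays; red is above and blue below that mean, and values beyond 1.5 take the end colour. The low-density control group on the right has the lowest mean for 27 of the 37 genes, with the darkest blue in Gbp2 and Irgm2, and Ifit2 runs the other way.

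The first comparison asks what changes in control cells when the dish fills. Interferon response genes were broadly higher at complete confluency than at low density: 28 of 37 rose and 3 fell, with 12 of these changing at least 2-fold (11% of all genes did). Across all genes 48.9% were called in this step, 26.1% higher and 22.8% lower. The members were chosen with earlier results of these data known, so their share against all genes is not an independent test. The members' median change was 0.70 and that of all genes -0.011. Guanylate-binding protein Gbp2 and the immunity-related GTPase Irgm2 rose most (4.73-fold and 4.18-fold), and Ifit2, an RNA-binding antiviral protein, was 2.36-fold lower. Genes that are well expressed are called more often: of the 22 members above the median gene 19 rose and 2 fell (41.5% and 35.5% of all genes at that level), and of the 15 below it 9 rose and 1 fell (10.7% and 10.1%). The median log2 level over all genes was 0.127 higher in confluent than in low-density control arrays. With arrays centred on their medians the members' median change was 0.574, with 26 higher and 3 lower, while the share of higher genes among all called genes was 37.3%, against 53.4% without centring.

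All 5 regulators rose with confluency. Stat2, the Stat factor of the complex that answers type I interferon, had 7.86 and 7.61 in confluent control cells, against 6.68 and 6.83 in low-density control cells (0.98, SE 0.11, adjusted p = 2.33e-05). Irf1, a transcription factor that drives interferon and antigen presentation genes, had 9.37 and 9.38 in confluent control, against 8.57 and 8.54 in low-density control (0.82, SE 0.05, adjusted p = 3.55e-07). For both genes the groups lay well apart. Irf7, a factor that amplifies interferon production, had 5.96 and 5.92 in confluent control, against 5.34 and 5.41 in low-density control (0.56, SE 0.11, adjusted p = 0.00198). Irf9, the DNA-binding partner of Stat2, had 6.73 and 6.86 in confluent control, against 6.37 and 6.26 in low-density control (0.48, SE 0.07, adjusted p = 0.000238). Stat3, which answers cytokines of the interleukin-6 family as well, rose by 0.89. The smallest of these steps, in Irf9, was still larger than the spread between its arrays.

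Both cytoplasmic RNA sensors among the members rose modestly. Ddx58, a further RNA sensor that is not a member, rose by 1.55. Dhx58, which helps detect viral RNA, had 5.66 and 5.81 in confluent control, against 5.37 and 5.13 in low-density control (0.49, SE 0.12, adjusted p = 0.00679). That call was lost without the second confluent control array (adjusted p = 0.0548) or without the second low-density control array (0.0577). Ifih1, the sensor of long double-stranded RNA, differed by 0.37 (adjusted p = 0.019), and by 0.25 with centred arrays, which was not called (adjusted p = 0.0806).

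The 6 measured genes of the Isg15 and protein-modifying group all rose, by a median of 0.771. Parp9, an ADP-ribosyltransferase that pairs with the ubiquitin ligase Dtx3l in antiviral defence, had 8.62 and 8.54 in confluent control, against 7.49 and 7.43 in low-density control (1.12, SE 0.06, adjusted p = 8.97e-08). Its partner Dtx3l rose by 0.92, Trim21, an antibody receptor inside the cell, by 0.84 and Parp14 by 0.70. Trim25, a ubiquitin ligase that activates RNA sensing, rose by 0.52. Usp18, which removes Isg15 from proteins and lies at percentile 17.5 of all genes, differed by 0.35 and was not called with centred arrays (0.22, adjusted p = 0.0984).

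Antiviral effectors divided: of 12 measured, 5 rose, 3 fell and 4 were not called, with a median of 0.19. Ifit1, which binds viral RNA ends, had 5.36 and 5.70 in confluent control, against 4.22 and 3.71 in low-density control (1.56, SE 0.15, adjusted p = 8.93e-06). The arrays of each group differed by more than for most members, but the groups stayed apart. Ifit1 was dim, at percentile 26.9 of all genes. Xaf1, a pro-apoptotic protein, rose by 1.47, Ifit3, the partner of Ifit1, by 1.27, Ifi35 by 1.23 and Bst2 (tetherin, which holds budding virus on the cell) by 0.31. Ifit2 ran against its family, with 8.42 and 8.48 in confluent control and 9.78 and 9.60 in low-density control. Its change was -1.24 (SE 0.08, adjusted p = 3.72e-07), and no array of either group came near the other.

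Samhd1, which breaks down the nucleotides needed for reverse transcription, fell by 0.57 on its brightest probe set. Its 5 probe sets were called in opposite directions, 3 lower and 2 higher, so the array gives no single direction for this gene. Rsad2 (viperin), also an inhibitor of viral replication, fell by 0.27, and its other probe sets, at 0.06 and -0.14, were not called. Among genes not called, Mx1 differed by -0.07, Mx2 by 0.10, Oas1a by 0.04 and Oasl2 by 0.28. Mx2 and Oas1a were not dim on these arrays, at percentiles 43.5 and 54 of all genes.

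Of the 6 interferon-inducible GTPases 5 rose, and this role group held both of the largest changes. Gbp2 had 7.79 and 7.82 in confluent control, against 5.58 and 5.55 in low-density control (2.24, 95% interval 2.08 to 2.40, SE 0.07, adjusted p = 4.57e-09). Its second probe set gave 2.15. Irgm2 had 6.89 and 6.94 in confluent control, against 4.77 and 4.94 in low-density control (2.06, SE 0.09, adjusted p = 2.45e-08). Igtp, also an Irg protein, rose by 1.37, Gbp3 by 0.88 and Irgm1, a regulator of the other Irg proteins, by 0.60. Iigp1 was dim in every group and did not pass the test (0.02).

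Of 6 antigen presentation genes 5 rose. Tapbp (tapasin), which loads peptides onto class I molecules, had 11.27 and 11.33 in confluent control, against 9.65 and 9.76 in low-density control (1.60, SE 0.06, adjusted p = 8.2e-09). Tap2 and Tap1, the subunits of the peptide transporter, rose by 1.20 and 0.52. B2m, the light chain of class I molecules, rose by 1.16. Of the immunoproteasome subunits, Psmb9 rose by 0.71, while Psmb8 differed by -0.18, with 5.21 and 5.26 in confluent control and 5.08 and 5.75 in low-density control. The spread between the 2 low-density arrays of Psmb8 was larger than its change.

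**Figure D2:**
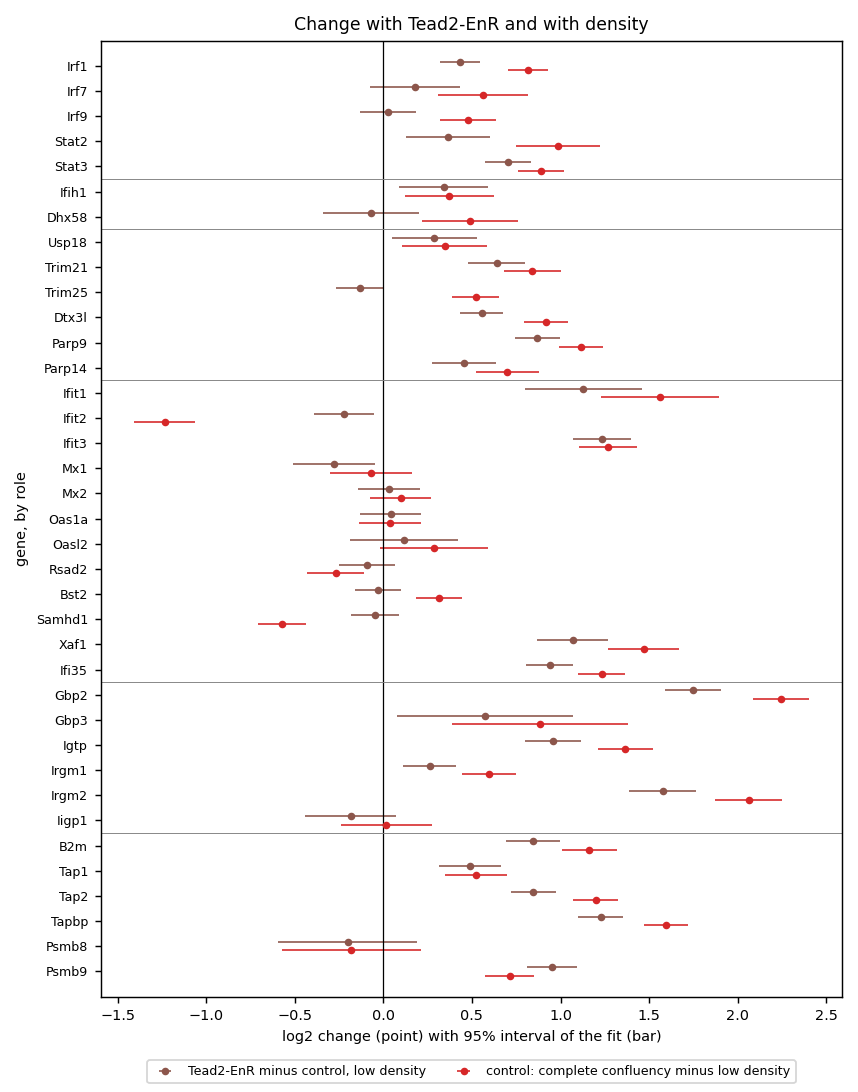
Log2 change of each of the 37 members with its 95% interval from the limma fit, for Tead2-EnR minus control at low density (brown) and for confluent minus low-density control (red); genes are ordered by role and the vertical line marks no change. Gbp2 (1.75 and 2.24) and Irgm2 (1.58 and 2.06) lie farthest right in both, and Ifit2 lies left of 0 in both (-0.22 and -1.24); both comparisons use the same 2 low-density control arrays.

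Several other quantities differed between the same arrays, and their part in these results was not tested. Summed intensity of the fibroblast markers was 104512 to 106769 in confluent control and 67354 to 68678 in low-density control. All 5 measured proliferation markers fell, and their summed intensity was 2644 to 2732 in confluent control and 13797 to 14730 in low-density control. The 8 immune markers summed to 848 to 872 in confluent control and 570 to 591 in low-density control, with 1 higher (Lyz2, 1.23) and 1 lower (Cd68, -0.66). The poly-A spike-in probe sets averaged 8.58 ± 0.12 in confluent control and 8.19 ± 0.09 in low-density control (log2, SD, n = 2). The 3′ minus 5′ log2 difference of the actin control was 0.234 ± 0.017 in confluent control and 0.081 ± 0.007 in low-density control, and that of the transferrin receptor control was 1.305 ± 0.193 in confluent control and 0.978 ± 0.052 in low-density control (SD, n = 2). The 4 epithelial markers summed to 463 to 464 in confluent control and 266 to 297 in low-density control, with Epcam higher (1.25) and Krt8 lower (-0.22). None of 4 endothelial markers was called.

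The promoters of members that rose most, and of the Ifit neighbours that moved in opposite directions, are shown. Matches to the known interferon elements, or their absence, can be read in them directly. Windows of 300 bases (250 before and 50 after a transcription start) come from RefSeq on build GRCm38.p6, written 5′ to 3′ on the gene's strand. Capitals mark matches on either strand to GAAA followed by any 2 bases and GAAA (the core of the interferon-stimulated response element), TTCNNNGAA (the gamma activated site bound by Stat dimers) or GGAATG (the core of the Tead site).
Gbp2 (chr3:142620413-142620712, + strand): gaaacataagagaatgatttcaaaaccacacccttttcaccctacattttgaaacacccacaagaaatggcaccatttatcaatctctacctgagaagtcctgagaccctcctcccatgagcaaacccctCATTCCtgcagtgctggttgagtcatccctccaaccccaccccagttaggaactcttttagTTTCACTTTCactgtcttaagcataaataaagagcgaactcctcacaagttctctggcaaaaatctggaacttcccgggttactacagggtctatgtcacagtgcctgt
Irgm2 (chr11:58214727-58215026, + strand): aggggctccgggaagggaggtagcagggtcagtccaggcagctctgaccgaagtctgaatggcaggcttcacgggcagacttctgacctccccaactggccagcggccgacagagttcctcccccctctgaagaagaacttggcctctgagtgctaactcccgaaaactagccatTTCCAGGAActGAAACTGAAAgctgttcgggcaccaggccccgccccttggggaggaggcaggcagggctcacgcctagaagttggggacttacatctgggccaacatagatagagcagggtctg
Tapbp (chr17:33919228-33919527, + strand): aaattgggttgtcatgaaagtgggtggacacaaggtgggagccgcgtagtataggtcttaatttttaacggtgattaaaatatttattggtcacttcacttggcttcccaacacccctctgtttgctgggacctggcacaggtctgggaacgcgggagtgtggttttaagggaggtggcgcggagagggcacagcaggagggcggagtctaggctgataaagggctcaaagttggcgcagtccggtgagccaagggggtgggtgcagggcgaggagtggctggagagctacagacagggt
Ifit1 (chr19:34640639-34640938, + strand): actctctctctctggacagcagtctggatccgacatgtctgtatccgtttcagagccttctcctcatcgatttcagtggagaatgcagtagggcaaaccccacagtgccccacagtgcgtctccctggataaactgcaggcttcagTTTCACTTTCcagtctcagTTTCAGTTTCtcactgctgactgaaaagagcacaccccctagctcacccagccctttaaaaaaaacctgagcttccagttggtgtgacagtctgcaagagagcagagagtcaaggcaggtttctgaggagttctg
Ifit2 (chr19:34550444-34550743, + strand, first of 2 windows): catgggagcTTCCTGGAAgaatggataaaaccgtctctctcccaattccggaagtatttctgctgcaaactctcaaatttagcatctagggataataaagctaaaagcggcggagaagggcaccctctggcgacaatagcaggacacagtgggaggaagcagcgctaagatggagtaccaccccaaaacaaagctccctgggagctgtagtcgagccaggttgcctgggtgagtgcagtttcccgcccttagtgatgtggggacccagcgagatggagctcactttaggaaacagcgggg

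In the Gbp2 window the response element core and a Tead core stand apart, in the Irgm2 window a gamma activated site stands beside the response element core, and the Tapbp window holds none of the 3 motifs. Ifit1 has 2 response element cores and so has its neighbour Ifit3, whereas neither of the 2 Ifit2 windows has one. RefSeq windows matched 29 of the 37 measured members, with 33 windows in all. The response element core was found in 14 of these windows (42.4%), compared with 3.44% of all 32851 windows of the same length. TTCNNNGAA was found in 9 (27.3%, against 8.3% of all windows) and GGAATG in 3 (9.09%, against 14.7%). Of the members that rose with confluency, 12 of 23 with a window held the response element core. Of those that fell 1 of 3 did (Rsad2), and of those not called 1 of 3 did (Oas1a). The genes were chosen as interferon genes, so a high share of these elements describes the choice, and a match marks letters, not a bound site. Only exact matches inside these windows were counted. A window without one, as for Ifit2 or Tapbp, does not show that the gene lacks the element.

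The second comparison sets Tead2-EnR cells against control cells at low density. With the repressor fusion 21 of 37 members rose and 1 fell, with 6 of the rises at least 2-fold (3.3% of all genes changed that much). The low-density control arrays are the same as in the density step, so the changes of both comparisons share them. Of all genes 38.4% were called, 20.3% higher and 18.1% lower. The members' median change was 0.434 and that of all genes -0.011. The median log2 level over all genes was 0.121 higher in Tead2-EnR than in control arrays. With centred arrays 18 members were higher and 6 lower (median 0.313), and the share of higher genes among all called genes was 32.1%, against 52.8% without centring. The 5 members called lower only after centring were Trim25 (-0.25), Mx1 (-0.40), Rsad2 (-0.21), Bst2 (-0.15) and Samhd1 (-0.17).

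Gbp2 had 7.33 and 7.30 in Tead2-EnR cells, against 5.58 and 5.55 in low-density control cells (1.75, SE 0.07, adjusted p = 1.1e-07). Irgm2 had 6.47 and 6.39 in Tead2-EnR cells, against 4.77 and 4.94 in control cells (1.58, SE 0.09, adjusted p = 6.47e-07). Ifit3 had 7.82 and 7.93 in Tead2-EnR cells, against 6.58 and 6.70 in control cells (1.24, SE 0.07, adjusted p = 1.09e-06). All Tead2-EnR arrays lay above all control arrays for these genes. Tapbp rose by 1.23, Ifit1 by 1.13 and Xaf1 by 1.07, which completes the members that rose at least 2-fold.

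By role, 5 of 6 antigen presentation genes rose, with Psmb9 at 0.95, Tap2 at 0.85 and B2m at 0.84. Likewise 4 of 6 GTPases, 4 of 6 protein-modifying genes and 4 of 12 antiviral effectors rose, among them Igtp at 0.96, Parp9 at 0.87 and Ifi35 at 0.94. Of the regulators, Stat3 (0.70), Irf1 (0.43) and Stat2 (0.36) rose, while Irf7 differed by 0.18 and Irf9 by 0.03 and were not called. Of the RNA sensors Ifih1 differed by 0.34 (adjusted p = 0.0363) and Dhx58 by -0.07. With centred arrays Stat2, Ifih1 and Irgm1 were no longer called (0.24, 0.22 and 0.14). Ifit2, the member called lower, had 9.51 and 9.42 in Tead2-EnR cells, against 9.78 and 9.60 in control cells (-0.22, SE 0.08, adjusted p = 0.0434). That call was lost without the first control array (adjusted p = 0.255) and without either Tead2-EnR array (0.0586 and 0.208).

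Proliferation markers fell in the same comparison (5 of 5), and their summed intensity was 9088 to 9355 in Tead2-EnR cells and 13797 to 14730 in low-density control cells. Fibroblast markers summed to 79768 to 80248 in the Tead2-EnR arrays, against 67354 to 68678 in the control arrays. Immune markers summed to 1759 to 1810 in the Tead2-EnR arrays, against 570 to 591 in the control arrays. Of these 8 markers Lyz2, a lysozyme gene of macrophages, rose by 2.74 and Cd68 fell by 0.57. The pan-leukocyte gene Ptprc averaged 3.26 in Tead2-EnR arrays and 3.51 in control arrays, and the myeloid integrin Itgam averaged 3.17 in Tead2-EnR arrays and 3.53 in control arrays. Of the 4 epithelial markers Epcam rose by 0.65, and of the 4 endothelial markers Tek rose by 0.54. Poly-A spike-in probe sets averaged 8.55 ± 0.03 in the Tead2-EnR arrays, against 8.19 ± 0.09 in the control arrays (SD, n = 2). The 3′ minus 5′ log2 difference was 0.154 ± 0.021 in the Tead2-EnR arrays, against 0.081 ± 0.007 in the control arrays, for actin. For the transferrin receptor it was 1.117 ± 0.025 in the Tead2-EnR arrays, against 0.978 ± 0.052 in the control arrays (SD, n = 2). The part of these differences in the result was not tested.

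Tead2-EnR cells at low density were also set against confluent control cells, a comparison in which vector and density both differ. Here 3 members were higher and 21 lower, at a median of -0.293, with 34.7% of all genes called, 16.7% higher and 18% lower. Only Ifit2 changed at least 2-fold, as 3.31% of all genes did. All 5 regulators were lower in Tead2-EnR cells. Trim25 had 9.13 and 9.04 in Tead2-EnR cells, against 9.71 and 9.76 in confluent control (-0.65, SE 0.06, adjusted p = 1.95e-05). Stat2 had 7.10 and 7.14 in Tead2-EnR cells, against 7.86 and 7.61 in confluent control (-0.62, SE 0.11, adjusted p = 0.00122). Dhx58 had 5.32 and 5.03 in Tead2-EnR cells, against 5.66 and 5.81 in confluent control (-0.56, SE 0.12, adjusted p = 0.00505), a call lost when its 3 probe sets were averaged (-0.15, adjusted p = 0.0658). Each of these genes stayed below its confluent level in every Tead2-EnR array.

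Ifit2 went the other way, with 9.51 and 9.42 in Tead2-EnR cells and 8.42 and 8.48 in confluent control (1.01, SE 0.08, adjusted p = 5.14e-06). Samhd1 had 9.42 and 9.45 in Tead2-EnR cells, against 8.92 and 8.90 in confluent control (0.52, SE 0.06, adjusted p = 0.000106), with 1 of its other probe sets called lower (-0.34). Psmb9 had 8.12 and 8.25 in Tead2-EnR cells, against 7.92 and 7.96 in confluent control (0.24, SE 0.06, adjusted p = 0.0131). The Psmb9 call was lost without the second Tead2-EnR array (adjusted p = 0.107) or without the first confluent control array (0.0743). For these genes the Tead2-EnR arrays all lay above the confluent ones. Ifit3 reached 7.87 ± 0.08 in Tead2-EnR cells and 7.91 ± 0.02 in confluent control (SD, n = 2), a difference that was not called. In the same comparison all 5 proliferation markers were higher, with summed intensities of 9088 to 9355 in Tead2-EnR cells and 2644 to 2732 in confluent control. Of 8 fibroblast markers 6 were lower and 1 higher, with sums of 79768 to 80248 in Tead2-EnR cells and 104512 to 106769 in confluent control. Of 8 immune markers Lyz2 was higher, averaging 10.49 in Tead2-EnR cells and 8.99 in confluent control (adjusted p = 1.55e-07, limma), and the others were not called. The part of these markers in the result was not tested.

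**Figure D3:**
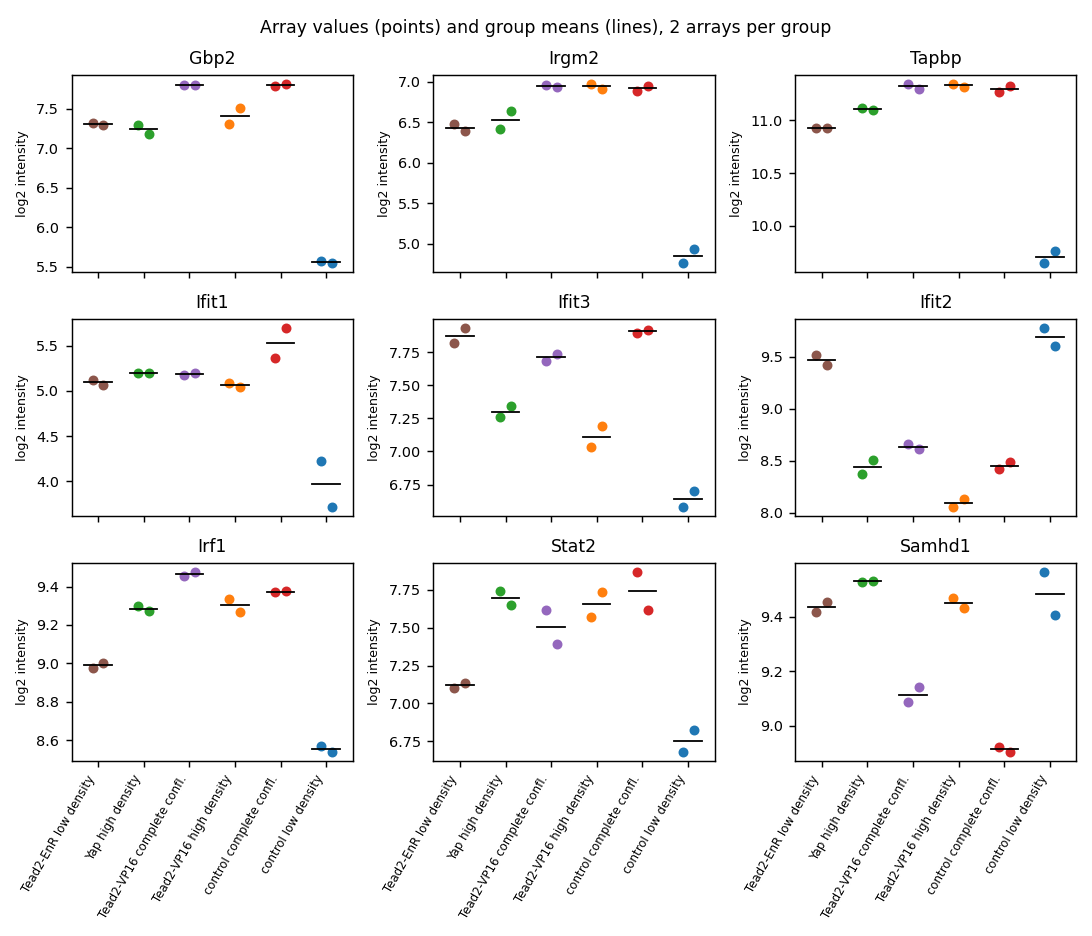
Log2 intensity in every array (points, 2 per group) and group means (black lines) for 9 members, with the vertical scale set for each gene and not starting at 0. Gbp2, Irgm2, Tapbp and Ifit1 are lowest in low-density control; Ifit2 is high in Tead2-EnR (9.51 and 9.42) and in low-density control (9.78 and 9.60), and Samhd1 is lowest in confluent control (8.92 and 8.90) on its brightest probe set.

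At complete confluency, 1 member was higher and 1 lower in Tead2-VP16 cells than in control cells, with 9.98% of all genes called, 5.06% higher and 4.92% lower. No member changed 2-fold, and 0.242% of all genes did. The members' changes ran from -0.34 (Ifit1) to 0.29 (Dhx58), neither of them called, with a median of -0.011 for members and -0.013 for all genes. Bst2 had 8.07 and 8.02 in Tead2-VP16 cells, against 7.84 and 7.77 in control cells (0.24, SE 0.06, adjusted p = 0.0307). Stat3 had 10.24 and 10.15 in Tead2-VP16 cells, against 10.46 and 10.41 in control cells (-0.24, SE 0.06, adjusted p = 0.0283). The groups did not overlap for either gene, but both calls were lost when any 1 of the 4 arrays was left out, with adjusted p between 0.0718 and 0.168 for Bst2 and between 0.0522 and 0.146 for Stat3.

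The count of 2 was 6 when tested among genes above the median level, 5 with the mean of each gene's probe sets, and 4 with log2(intensity + 16) or with a variance trend. Before adjustment 11 members (29.7%) had p below 0.05, 5 higher and 6 lower, as did 23.7% of all genes, 11% higher and 12.7% lower. The 95% intervals of all 37 changes lay between -0.74 and 0.56. Gbp2 averaged 7.80 ± 0.01 in Tead2-VP16 cells and 7.81 ± 0.02 in control cells (SD, n = 2), with a 95% interval of the difference from -0.17 to 0.15. With centred arrays 3 members were higher and none lower (Bst2, Samhd1 and Ifi35), and 68.6% of all called genes were higher, against 50.7% without centring. Proliferation markers summed to 1869 to 1903 in Tead2-VP16 cells and 2644 to 2732 in control cells.

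High-density Yap cells were compared with each control group in turn, and these comparisons share the Yap arrays. Against confluent control 1 member was higher and 13 were lower, with a median of -0.144 and 26.1% of all genes called, 11.7% higher and 14.5% lower. No member changed 2-fold, and 1.1% of all genes did. Ifit3 had 7.26 and 7.34 in Yap cells, against 7.90 and 7.92 in confluent control (-0.61, SE 0.07, adjusted p = 0.000257). Gbp2 had 7.30 and 7.19 in Yap cells, against 7.79 and 7.82 in confluent control (-0.56, SE 0.07, adjusted p = 0.000324). Xaf1 had 7.86 and 7.83 in Yap cells, against 8.46 and 8.29 in confluent control (-0.53, SE 0.09, adjusted p = 0.00179). Every Yap array lay below both confluent arrays for these genes.

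Lower values in Yap cells were called in 4 of 6 protein-modifying genes, led by Trim25 (-0.43), and in 3 of 6 antigen presentation genes, led by B2m (-0.28). Samhd1 had 9.53 and 9.53 in Yap cells, against 8.92 and 8.90 in confluent control (0.62, SE 0.06, adjusted p = 7.76e-05). Of its 5 probe sets 3 were called higher and none lower here. Ifit2 averaged 8.44 ± 0.10 in Yap cells and 8.45 ± 0.04 in confluent control (SD, n = 2), a difference that was not called. With centred arrays 2 members were higher and 12 lower, and 54.7% of all called genes were higher, against 44.6% without centring.

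Against low-density control, 22 members were higher in Yap cells and 1 lower, with a median of 0.503 and 42.4% of all genes called, 22.2% higher and 20.2% lower. At least 2-fold changes were found in 7 members and 6.62% of all genes. Gbp2 had 7.30 and 7.19 in Yap cells, against 5.58 and 5.55 in low-density control (1.68, SE 0.07, adjusted p = 5.21e-08). Irgm2 had 6.41 and 6.64 in Yap cells, against 4.77 and 4.94 in low-density control (1.67, SE 0.09, adjusted p = 1.88e-07). Tapbp had 11.11 and 11.10 in Yap cells, against 9.65 and 9.76 in low-density control (1.40, SE 0.06, adjusted p = 3.67e-08). Ifi35 (1.25), Ifit1 (1.23) and Igtp (1.15) also rose by at least 2-fold, while neither RNA sensor among the members was called. Ddx58, an RNA sensor outside the members, was higher in Yap cells by 1.10. Ifit2 had 8.37 and 8.51 in Yap cells, against 9.78 and 9.60 in low-density control (-1.25, SE 0.08, adjusted p = 6.09e-07). With centred arrays 20 members were higher and 1 lower, and 40% of all called genes were higher, against 52.4% without centring.

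Tead2-VP16 cells at high density were likewise compared with both control groups. Against confluent control 1 member was higher and 12 were lower, with a median of -0.131 and 26.9% of all genes called, 13.2% higher and 13.7% lower. No member changed 2-fold, and 1.2% of all genes did. Ifit3 had 7.04 and 7.19 in Tead2-VP16 cells, against 7.90 and 7.92 in confluent control (-0.80, SE 0.07, adjusted p = 4.57e-05). Xaf1 had 7.99 and 7.95 in Tead2-VP16 cells, against 8.46 and 8.29 in confluent control (-0.40, SE 0.09, adjusted p = 0.00765), a call lost without the first confluent array (adjusted p = 0.0658). Ifit1 had 5.09 and 5.04 in Tead2-VP16 cells, against 5.36 and 5.70 in confluent control (-0.46, SE 0.15, adjusted p = 0.0435). The Ifit1 call was lost with centred arrays (adjusted p = 0.0606), without the second confluent array (0.271) and without either Tead2-VP16 array (0.123 and 0.152).

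Ifit2 was lower as well (-0.36), so in these cells all 3 measured Ifit genes were below their confluent level. The Ifit1 call did not hold under every alternative. Samhd1 had 9.47 and 9.43 in Tead2-VP16 cells, against 8.92 and 8.90 in confluent control (0.54, SE 0.06, adjusted p = 0.000161), with 2 of its 5 probe sets called higher and none lower. Tapbp was not called in this comparison, at 11.33 ± 0.02 in Tead2-VP16 cells and 11.30 ± 0.04 in confluent control (SD, n = 2). With centred arrays 2 members were higher and 8 lower, and 57.6% of all called genes were higher, against 49.2% without centring.

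Against low-density control 26 members were higher in Tead2-VP16 cells at high density and 2 lower, with a median of 0.512 and 42.9% of all genes called, 23.4% higher and 19.5% lower. At least 2-fold changes were found in 10 members and 7.18% of all genes. Irgm2 had 6.98 and 6.91 in Tead2-VP16 cells, against 4.77 and 4.94 in low-density control (2.09, SE 0.09, adjusted p = 3.68e-08). Gbp2 had 7.31 and 7.51 in Tead2-VP16 cells, against 5.58 and 5.55 in low-density control (1.84, SE 0.07, adjusted p = 2.51e-08). Tapbp had 11.35 and 11.32 in Tead2-VP16 cells, against 9.65 and 9.76 in low-density control (1.63, SE 0.06, adjusted p = 1.23e-08). All 5 regulators and all 6 protein-modifying genes were higher, although Irf7, Usp18 and Trim25 were not called with centred arrays (0.30, 0.25 and 0.15).

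Ifit2 had 8.05 and 8.13 in Tead2-VP16 cells, against 9.78 and 9.60 in low-density control (-1.60, SE 0.08, adjusted p = 1.03e-07), which was its lowest level of the 6 groups. Rsad2 had 5.83 and 5.94 in Tead2-VP16 cells, against 6.02 and 6.15 in low-density control (-0.20, SE 0.07, adjusted p = 0.0425). The Rsad2 call was lost without the first Tead2-VP16 array (adjusted p = 0.225) or the second control array (0.239), and the mean of its probe sets gave -0.06. With centred arrays 23 members were higher and 2 lower, and 41.7% of all called genes were higher, against 54.6% without centring. Proliferation markers were lower in both high-density groups than in low-density control. Their summed intensities were 2310 to 2409 in Yap cells, 1974 to 2073 in Tead2-VP16 cells and 13797 to 14730 in low-density control cells. In confluent control they summed to 2644 to 2732. Against confluent control, Mki67 and Top2a were called lower in both high-density groups and Mcm5 higher in both, and Ccna2 was called higher in Yap cells.

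Yap and Tead2-VP16 cells at the same high density differed in 1 member, with 2.02% of all genes called, 0.934% higher and 1.08% lower. No member differed 2-fold, and 0.044% of all genes did. Irgm2 had 6.41 and 6.64 in Yap cells, against 6.98 and 6.91 in Tead2-VP16 cells (-0.41, SE 0.09, adjusted p = 0.0422), and that call was lost when any 1 of the 4 arrays was left out (adjusted p 0.0546 to 0.241). No member was called higher in Yap cells by limma, although 1 was with quantile normalization repeated, with every probe set tested, with the mean of probe sets, among genes above the median level, with log2(intensity + 16) or with a variance trend. Before adjustment 10 members (27%) had p below 0.05, 2 higher and 8 lower, as did 14% of all genes, 5.58% higher and 8.45% lower. Changes ran from -0.41 to 0.35 (Ifit2), and the 95% intervals of all 37 lay between -0.65 and 0.59.

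Tead2-VP16 cells were also compared between complete confluency and high density. Of the 37 members, 12 were higher at complete confluency and 3 lower, with a median of 0.11 and 24.5% of all genes called, 12.1% higher and 12.4% lower. No member changed 2-fold, and 0.594% of all genes did. The count was 9 without the first array at complete confluency and 8 without the first at high density, compared with 15 from all arrays. Ifit3 had 7.69 and 7.74 at complete confluency, against 7.04 and 7.19 at high density (0.60, SE 0.07, adjusted p = 0.00038). Ifit2 had 8.66 and 8.61 at complete confluency, against 8.05 and 8.13 at high density (0.54, SE 0.08, adjusted p = 0.000804). Ifit3 and Ifit2 therefore rose in this step, and neither pair of groups overlapped, while Ifit1 differed by 0.12 and was not called.

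Dhx58 had 5.97 and 6.08 at complete confluency, against 5.43 and 5.64 at high density (0.49, SE 0.12, adjusted p = 0.0155), a call lost without the second array at complete confluency (adjusted p = 0.093) or the first at high density (0.117). Xaf1 (0.44), Gbp2 (0.39), Tap2 (0.30) and Dtx3l (0.29) rose too. Samhd1 had 9.09 and 9.14 at complete confluency, against 9.47 and 9.43 at high density (-0.34, SE 0.06, adjusted p = 0.0033), but 2 of its probe sets were called lower and 2 higher. Trim21 had 7.64 and 7.64 at complete confluency, against 7.95 and 7.86 at high density (-0.27, SE 0.07, adjusted p = 0.0224). That call was lost without either array at complete confluency (adjusted p = 0.0819 and 0.0888) or the first at high density (0.141). Rsad2 had 5.59 and 5.72 at complete confluency, against 5.83 and 5.94 at high density (-0.23, SE 0.07, adjusted p = 0.043), and the mean of its probe sets gave -0.03. The Rsad2 call was also lost with centred arrays (-0.22, adjusted p = 0.0573), without the first array at complete confluency (0.228) and without either array at high density (0.0648 and 0.207).

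**Figure D4:**
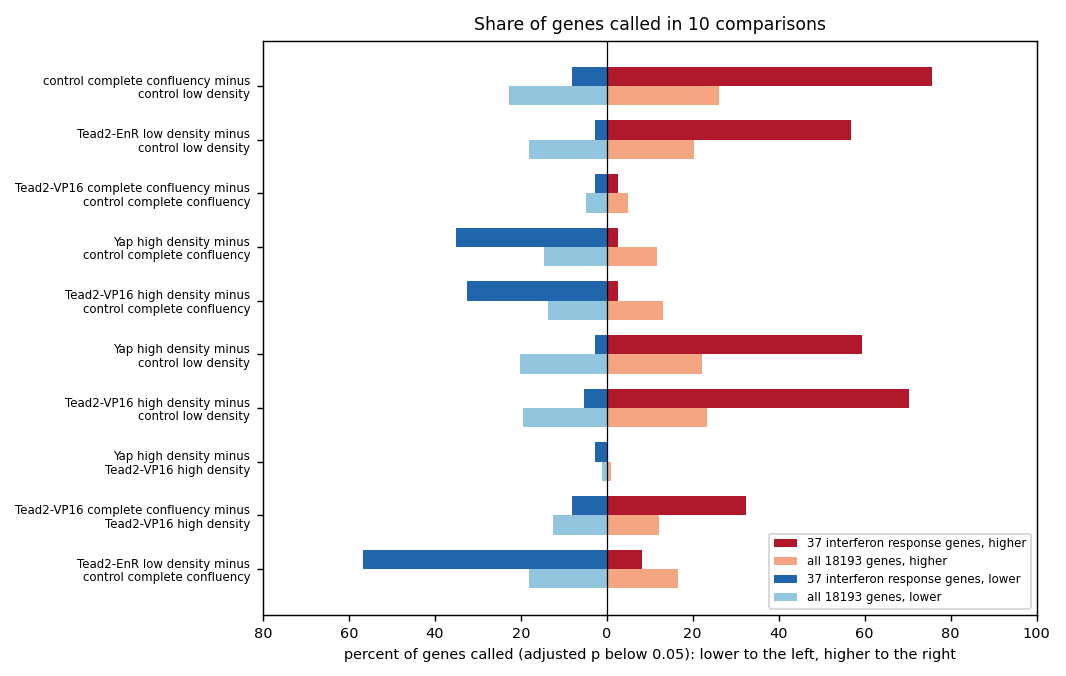
Percent of genes called lower (bars to the left) and higher (bars to the right) at an adjusted p below 0.05 in the 10 comparisons, for the 37 interferon response genes (dark) and all 18193 genes (light). The members' higher bar reaches 75.7% for confluent against low-density control, where the bar of all genes reaches 26.1%; comparisons that share a control group share its arrays.

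The rest of the pathway was read from lists of related genes, whose counts stand against 48.9% of all genes called with confluency (26.1% higher, 22.8% lower) and 38.4% called with Tead2-EnR (20.3% higher, 18.1% lower). Interferon genes themselves were mostly dim: Ifnb1 lay at percentile 20.7 of all genes and Ifng at percentile 3.7. Ifna1, the highest of the 6 measured, lay at percentile 42.7. Ifnb1 averaged 4.42 ± 0.03 in confluent control, 4.67 ± 0.02 in low-density control and 4.40 ± 0.10 in Tead2-EnR cells (SD, n = 2). By limma it narrowly missed a call with confluency (-0.26, adjusted p = 0.05 after rounding) and with Tead2-EnR (-0.27, adjusted p = 0.0511). Of 6 measured ligands 1 was called in each of these comparisons, Ifna2 (0.27 with confluency and 0.23 with Tead2-EnR, on a probe set at percentile 21.3). The interferon alpha genes are near-identical copies, so the array may not separate them.

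Receptors and their kinases moved by small amounts. Of 7 genes 5 rose and 1 fell with confluency, and 6 rose with Tead2-EnR, so 85.7% were called in each. Ifnar2 and Ifnar1, the chains of the type I interferon receptor, rose by 0.65 and 0.37 with confluency and by 0.49 and 0.41 with Tead2-EnR. Jak2 rose by 0.48 and 0.45 in the same comparisons, and Tyk2 by 0.33 and 0.27. Jak1 rose by 0.19 and 0.25. Ifngr2, a chain of the gamma interferon receptor, fell by 0.50 with confluency, while Ifngr1 differed by 0.06.

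Of 14 measured genes of nucleic acid sensing and partner factors, 6 rose and 2 fell with confluency, and 6 rose and 3 fell with Tead2-EnR. The shares called were 57.1% with confluency, near the 48.9% of all genes, and 64.3% with Tead2-EnR. Ddx58, the sensor RIG-I, rose by 1.55 with confluency and by 1.09 with Tead2-EnR. Tlr3, which detects double-stranded RNA in endosomes, rose by 1.16 and 0.90. Cgas, a DNA sensor, fell by 1.35 with confluency and by 0.63 with Tead2-EnR, and its adaptor Sting1 fell by 0.87 and by 0.34. Zbp1, which senses Z-form nucleic acid, differed by 0.08 with confluency and by -0.10 with Tead2-EnR, and the kinase Tbk1 by -0.11 and 0.07, none of them called. Of 5 feedback inhibitors 3 rose and 1 fell in both comparisons (80% called in each), with Socs3 (0.83 and 0.53), Pias1 (0.71 and 0.54) and Socs1 (0.35 and 0.43) higher and the phosphatase Ptpn2 lower (-0.62 and -0.35).

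Among 44 further interferon-inducible genes, 23 rose and 5 fell with confluency (median 0.386), and 17 rose and 4 fell with Tead2-EnR (median 0.174). The shares called were 63.6% with confluency and 47.7% with Tead2-EnR, against 48.9% and 38.4% of all genes. Ifi27l2a (1.70) and Tor3a (1.30) rose most with confluency, and Ifi204, a DNA-binding protein, and the chemokine Cxcl10 fell most (-1.03 and -0.94). With Tead2-EnR, Ifitm3, a membrane protein that blocks virus entry, rose by 1.33 and Ifi27l2a by 0.99, and Cxcl10 fell by 0.74. Ifi204 rose by 0.76 with Tead2-EnR. In each of the comparisons, Oas2, Oas3 and Oas1b were not called.

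Of 15 measured class I and II genes 10 rose and 2 fell with confluency, and 9 rose with Tead2-EnR. The shares called were 80% with confluency and 60% with Tead2-EnR, against 48.9% and 38.4% of all genes. H2-M3 (1.14) and the peptide-trimming protease Erap1 (1.13) rose most with confluency, and the class I heavy chains H2-K1 and H2-D1 rose by 0.74 each. Ciita, the master regulator of class II genes, fell by 0.38, and the class II gene H2-Ab1 differed by -0.17 and was not called. Cd74, also of the class II pathway, had 6.98 and 6.94 in confluent control, against 6.14 and 6.14 in low-density control. Ciita lay at percentile 30.6 of all genes, H2-Ab1 at 25.5 and Cd74 at 47. Class I heavy chains are close copies of each other, so their probe sets may share signal.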

How the data were processed

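Affymetrix probe set values of 12 arrays of NIH3T3 cells were used. The deposited values are intensities on a linear scale (3.77 to 25980), and RMA is named without a version, per the submitters' processing notes; RMA gives log2 values, so log2 was taken here. RMA also equalises array distributions, so a change shared by most genes would be reduced. Of 45101 probe sets, 34945 have 1 symbol, 932 several, 9160 none and 64 are controls. The brightest probe set per gene was kept (18193 genes).

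Groups and replicate numbers came from the sample titles. One limma fit (version 3.58.1, R 4.3.3) over the 6 groups gave 10 comparisons with Benjamini-Hochberg adjustment over all genes, called below 0.05. It was tested on simulated data. Promoters were searched and figures drawn in Python 3.11.15 (matplotlib 3.10.9).

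The members and lists were chosen with earlier results of these data known. Array values are given for the called member with the largest rise and fall in each role group with confluency, for Irf1, Irf7, Irf9 and Stat2, and for the 3 largest rises and falls called in each other comparison. Irgm2, Samhd1, Rsad2 and Psmb8 were described further after their values were seen.

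Alternatives were other probe set rules, scalings, a pseudocount of 16, a filter at the median gene, a variance trend, the 4 arrays compared alone, a replicate block, a 2-fold limit and leaving out each array. Some items are not reported here. Precision is limited by having 2 arrays in each group.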

Additional observations from a re-analysis of the deposited data

How the results depend on the processing

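The 46 named changes were recomputed under each alternative, which gave 631 values: 546 kept direction and call, 85 kept direction and lost the call, those failing the 2-fold limit included, and none reversed. Leaving out 1 array gave 27 to 30 called members for confluent against low-density control, 18 to 23 for Tead2-EnR against low-density control, 19 to 21 for Tead2-EnR against confluent control, 10 to 12 for Yap against confluent control, 21 to 23 for Yap against low-density control, 9 to 11 for high-density Tead2-VP16 against confluent control and 24 to 27 against low-density control, 8 to 10 for the density step of Tead2-VP16 cells, and 0 to 0 for confluent Tead2-VP16 against control and for Yap against Tead2-VP16.

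With a 2-fold limit as well, 12 members were called for confluent against low-density control, 6 for Tead2-EnR against low-density and 1 against confluent control, 7 for Yap and 10 for high-density Tead2-VP16 against low-density control, and 0 in the other 5 comparisons. With the 4 arrays of a comparison alone, 9 were called in the density step of Tead2-VP16 cells and 0 for confluent Tead2-VP16 against control and for Yap against Tead2-VP16. Confluent Tead2-VP16 against control gave 6 among genes above the median level, 4 with log2(intensity + 16), 5 with the mean of probe sets and 4 with a variance trend, compared with 2. Yap against Tead2-VP16 gave 3, 3, 2 and 3 in the same order, 2 with every probe set, 2 with repeated quantile normalization and 0 with the replicate block, compared with 1. The cause of these moves was not tested.

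Replicate numbers did not pair the arrays: deviations of same-numbered arrays correlated between -0.061 and 0.101 over 15 pairs of groups, 1 above 0.1. With the replicate block, Ifit2 with Tead2-EnR (adjusted p = 0.0579), Ifit1 in high-density Tead2-VP16 against confluent control (0.0568) and Irgm2 in Yap against Tead2-VP16 (0.0535) lost their calls. Groups of 2 arrays, a missing control at high density and dim genes such as Mx1, Oasl2 and Iigp1 limit what can be called.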
